A study of Homo sapiens with 6 samples.

Results

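The 10 genes described here encode inflammatory chemokines that epithelial tumor cells can make, namely CXCL1, CXCL2, CXCL3, CXCL5, CXCL8, CXCL10, CXCL16, CCL20, CCL28 and CX3CL1. They were chosen by gene symbol, as CXC, CC and CX3C ligands known from epithelial cells, and all 10 were found among the 17860 genes listed in the deposited expression table. The cells were HCC1806-HM3, a derivative of the human triple-negative breast cancer line HCC1806 obtained by serial passage through liver metastases in mice, which the labels call breast squamous cell carcinoma cells. They carried either a control short hairpin RNA (shNC, 3 samples) or a hairpin against MSLN (shMSLN, 3 samples), the gene for the cell-surface glycoprotein mesothelin. Both groups were infected with lentivirus, selected with G418 to give stable lines and grown in RPMI medium with fetal bovine serum and antibiotics. Which of the study's MSLN hairpins the shMSLN samples carried, and whether all 3 carried the same one, is not given. Nothing says that the 3 samples of a group were separate cultures, so the p-values below measure the spread between these samples, which may be technical.

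Chemokines are small secreted proteins that direct the movement of leukocytes through G protein-coupled receptors. CXCL1, CXCL2, CXCL3, CXCL5 and CXCL8 carry a Glu-Leu-Arg (ELR) motif before their first cysteines and draw neutrophils through CXCR2, and CXCL8 also through CXCR1. CXCL10 attracts activated T cells through CXCR3, CCL20 attracts CCR6-bearing T and dendritic cells, and CCL28 acts through CCR10 and CCR3 at mucosal surfaces, whereas CXCL16 and CX3CL1 are made as membrane-anchored proteins that bind CXCR6 and CX3CR1 and can be shed by ADAM10 and ADAM17. In epithelial cells the ELR chemokines and CCL20 are classical targets of the transcription factor NF-kB, downstream of IL-1, TNF, IL-17 and Toll-like receptors, and their short-lived mRNAs are removed by proteins that bind AU-rich elements or stem-loops.

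The promoters are shown first because the ELR chemokine genes share one short NF-kB-type (kappaB) sequence at nearly one place. Each line gives the 130 bases before the transcription start, 5′ to 3′ on the gene's own strand, from RefSeq on GRCh38.p14. Capitals mark the letters GGAATTTCC, and in CCL20, which lacks them, matches to a looser kappaB motif, GGG and CC with any 5 bases between them. The windows were CXCL1 at chr4:73869263-73869392 (forward strand), CXCL2 at chr4:74099196-74099325 (reverse), CXCL3 at chr4:74038690-74038819 (reverse), CXCL5 at chr4:73998678-73998807 (reverse), CXCL8 at chr4:73740439-73740568 (forward) and CCL20 at chr2:227813712-227813841 (forward). CXCL6, an ELR chemokine outside the 10 genes whose mRNA did not pass the test below, is shown for comparison, at chr4:73836548-73836677 (forward).
CXCL1: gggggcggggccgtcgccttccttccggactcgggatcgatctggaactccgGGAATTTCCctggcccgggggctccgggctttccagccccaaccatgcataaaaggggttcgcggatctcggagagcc
CXCL2: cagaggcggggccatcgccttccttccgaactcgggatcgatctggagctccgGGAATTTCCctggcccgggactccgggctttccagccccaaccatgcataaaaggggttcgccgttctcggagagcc
CXCL3: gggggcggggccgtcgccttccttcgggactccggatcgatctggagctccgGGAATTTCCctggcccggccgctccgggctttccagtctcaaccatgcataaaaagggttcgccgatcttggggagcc
CXCL5: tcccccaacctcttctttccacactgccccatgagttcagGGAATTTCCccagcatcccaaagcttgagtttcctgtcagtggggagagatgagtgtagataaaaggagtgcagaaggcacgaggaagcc
CXCL8: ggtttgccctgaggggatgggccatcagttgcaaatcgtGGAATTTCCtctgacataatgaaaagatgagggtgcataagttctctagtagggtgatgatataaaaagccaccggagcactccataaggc
CCL20: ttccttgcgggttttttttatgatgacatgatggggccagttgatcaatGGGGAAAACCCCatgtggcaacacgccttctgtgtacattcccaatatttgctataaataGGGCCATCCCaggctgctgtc
CXCL6: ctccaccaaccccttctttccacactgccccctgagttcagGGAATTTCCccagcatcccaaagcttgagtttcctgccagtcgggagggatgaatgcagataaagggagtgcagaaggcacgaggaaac

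Promoter windows of 300 bases (250 before and 50 after the start) were given for 8 of the 10 genes, all but CXCL16 and CX3CL1. GGAATTTCC, searched on both strands, was found in 6 of these 8 genes and in 0.464% of the 34943 promoters in the RefSeq table. It began 78 bases before the start in CXCL1, 77 in CXCL2, 78 in CXCL3, 90 in CXCL5 and 91 in CXCL8, and in CXCL10 its match lay from 176 to 168 bases before the start. CXCL6 held the same 9 letters 89 bases before its start. The windows of CCL20 and CCL28 did not contain these letters. CCL20 had overlapping matches to the looser kappaB motif, 1 group of them beginning 81 bases before its start. That motif, searched on both strands, was present in 58.6% of all promoters and in all 8 genes, and in the ELR genes other than CXCL8 it overlapped GGAATTTCC. The AP-1 letters TGANTCA, on both strands, were found in the CXCL8 window alone of the 8, beginning 137 bases before the start, and in 7.72% of all promoters. The letters of the interferon-stimulated response element, TTTC and TTTC with any 2 bases between them, were found on either strand in the CXCL10 window alone of the 8, beginning 221 bases before the start, and in 3.57% of all promoters. A match describes the reference sequence and was not measured as a bound site in these cells.

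The CXCL1, CXCL2 and CXCL3 genes are close relatives. Between their longest coding transcripts, identity was 80.4% for CXCL1 and CXCL2, 71.2% for CXCL1 and CXCL3 and 67.5% for CXCL2 and CXCL3, and their promoter windows were 71.9% to 82.5% identical. Exact runs of 50 bases that are shared with another of the 3 genes began at 9.24% of the positions in CXCL2, 5.72% in CXCL1 and 5.26% in CXCL3, while 0 runs of 100 bases were shared. Reads that fall in such runs can be split between these genes, and their single values are uncertain to that extent. CXCL8 and CCL20 shared 0 runs of 50 bases with any other gene.

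Estimated counts summed to between 17507837 and 18512135 per sample, so 1 read corresponded to about 0.0538 to 0.0565 counts per 1e+06 reads (CPM), and depth differed little between the groups. The targeted gene, MSLN, stood at 228 ± 2.43 CPM in shNC (SD, n = 3) and 36.2 ± 0.896 CPM in shMSLN (SD, n = 3), or 15.9% of the control level. Epithelial markers were high in every sample, with 8534 to 9361 deposited TPM (transcript abundance scaled for gene length and depth) summed over 12 genes in shNC and 8680 to 9050 in shMSLN. Of the 12, 3 were called higher and 5 lower, beside 16.6% and 18.0% of all genes tested. The falls were those of KRT6A (log2 fold change -1.04, from a mean of 138 to 69.1 TPM), KRT16 (-0.74), KRT5 (-0.38), TP63 (-0.22) and KRT18 (-0.16). The rises, of CDH1 (0.15), KRT17 (0.16) and KRT7 (0.16), were small. Summed leukocyte markers were 39.7 to 43.8 TPM in shNC and 41.6 to 42.9 in shMSLN, mostly CD68, with CSF3R called higher among 6 tested. ITGAM was lower in shMSLN without passing the test (log2 fold change -0.68, adjusted p = 0.0744 with edgeR). PTPRC was at 2.26 to 3.55 TPM in shNC and 3.51 to 4.19 TPM in shMSLN, while the T-cell marker CD3E stayed at or below 0.1 TPM in all 6 samples. Summed endothelial markers were 3.42 to 3.97 TPM against 3.61 to 4.51, with VWF called higher among 4 tested. CDH5 went the other way, without overlap of the groups, and just missed the threshold (log2 fold change -0.89, adjusted p = 0.0503 with edgeR). Summed fibroblast markers were 74.7 to 77.3 TPM in shNC and 133 to 136 in shMSLN, with LUM and DCN called higher among 6 tested, with COL1A1 at 11.2 to 12.1 TPM and THY1 at 13.1 to 16.8 TPM over the 6 samples, and COL1A2 and COL3A1 at or below 0.19 TPM. The calls of CSF3R, VWF and DCN were lost with DESeq2 and without shNC replicate 2 or 3 or shMSLN replicate 2 or 3, and that of DCN also without shMSLN replicate 1. LUM carried the rise in the fibroblast sum, at 47.2, 50.2 and 51.0 TPM in shNC and 104, 107 and 104 TPM in shMSLN. The part of these marker changes in the chemokine differences was not tested.

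Knockdown of MSLN was accompanied by lower mRNA of most of the chemokines that had enough reads, foremost CCL20 and CXCL8, followed by CXCL3 and CXCL1. Of the 10 genes, 7 had enough reads for the test, which was edgeR's quasi-likelihood test with p-values adjusted by Benjamini-Hochberg over 14552 genes. At an adjusted p below 0.05, 5 fell and 0 rose. Over all genes tested, 18.0% fell and 34.6% were called in either direction. A fall of at least 2-fold that passed the test was seen in 3 of the 7 (CXCL3, CXCL8 and CCL20), against 0.722% of all genes. CXCL3 and CCL20 had fewer than 10 reads in part of the shMSLN samples and met the filter on low counts with the help of shNC, where they are higher. With a filter of at least 10 counts in every sample, only CXCL8 of these 3 was tested. The median log2 fold change of the 7 was -0.87, beside 0.0019 over all genes. The count of rises was also 0 at an unadjusted p below 0.05, with DESeq2 and with limma-voom. In such bulk RNA, fewer cells that make a chemokine and less of its RNA per cell cannot be told apart.

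**Figure D1:**
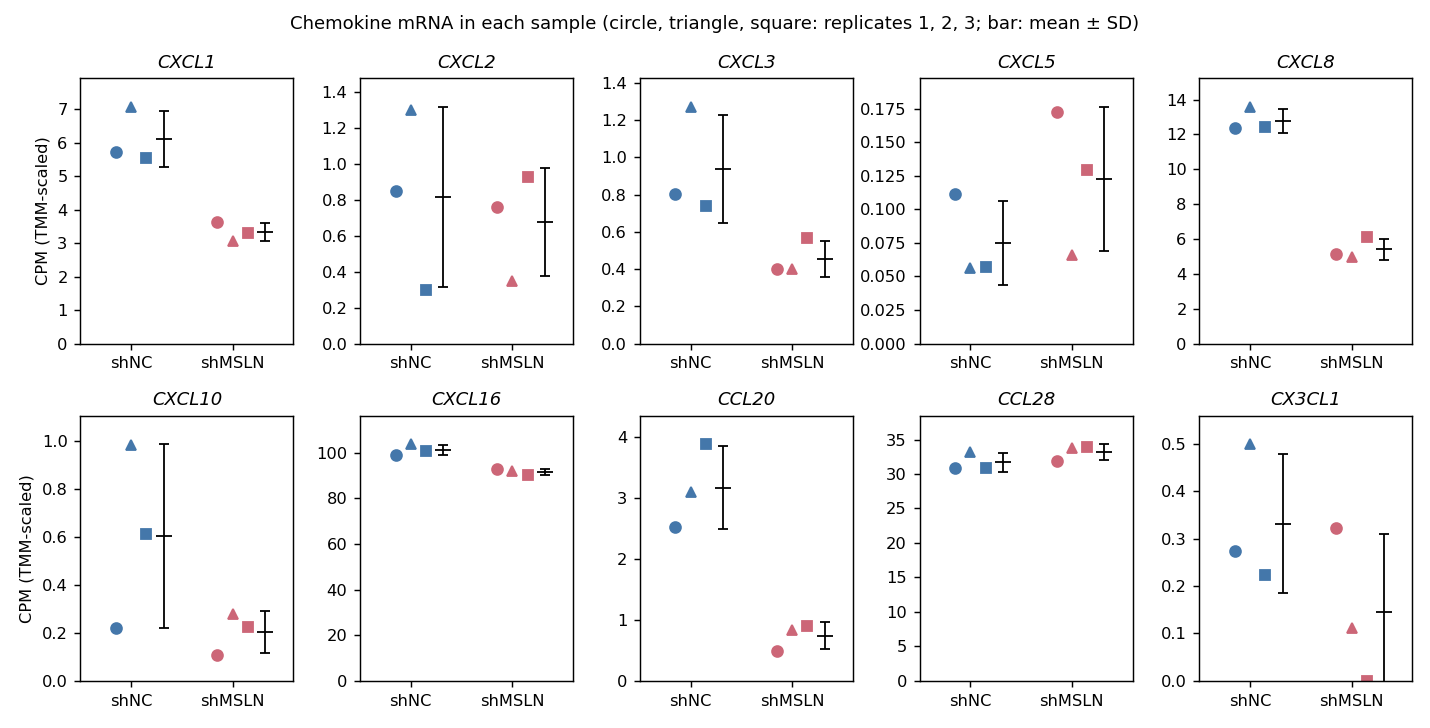
CPM (TMM-scaled, linear axes from 0) of the 10 chemokine mRNAs in the 3 shNC and 3 shMSLN samples, with the mean ± SD of each group beside the points (bars are cut at 0). CXCL1, CXCL3, CXCL8, CXCL16 and CCL20 have all shMSLN samples below all shNC samples, while the groups overlap for the other 5.

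CXCL8, the principal human neutrophil chemokine, was the most abundant of the 5 ELR chemokines in both groups by mean TPM, and was above CXCL6 in shNC only. It stood at 12.4, 13.6 and 12.4 CPM in shNC replicates 1 to 3 and at 5.16, 4.99 and 6.10 CPM in shMSLN replicates 1 to 3. All shMSLN samples were below all shNC samples, as was the case for 5 of the 7 tested genes and, in the same direction, for 23.5% of all genes tested. The log2 fold change was -1.24 (SE 0.108, 95% interval -1.47 to -1.01, adjusted p = 6.24e-07 with edgeR), a 2.36-fold fall. It rested on 223 to 245 reads in shNC and 89 to 108 in shMSLN.

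CXCL1, a ligand of CXCR2 first known as growth-regulated oncogene alpha, fell less in size. It stood at 5.73, 7.07 and 5.53 CPM in shNC and 3.62, 3.07 and 3.31 CPM in shMSLN. The highest shMSLN sample was below the lowest shNC sample. Its log2 fold change was -0.87 (SE 0.150, 95% interval -1.19 to -0.55, adjusted p = 0.00043 with edgeR), or 54.7% of the control level.

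CXCL3, the closest relative of CXCL1 in promoter sequence among the ELR genes of the list, averaged 1.98 TPM in shNC, against 11.7 TPM for CXCL1. Its levels were 0.803, 1.27 and 0.739 CPM in shNC and 0.401, 0.399 and 0.565 CPM in shMSLN, or 13 to 23 reads against 7 to 10. The groups did not overlap. The log2 fold change was -1.07 (SE 0.362, 95% interval -1.85 to -0.30, adjusted p = 0.0328 with edgeR). This call was lost with DESeq2 (adjusted p = 0.126) and without shNC replicate 2 (log2 fold change -0.79, adjusted p = 0.161), shMSLN replicate 1 (-0.96, adjusted p = 0.0956) or shMSLN replicate 2 (-0.99, adjusted p = 0.106) in edgeR.

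CXCL2 did not pass the test, and its samples were the most scattered of the ELR genes that were tested. It stood at 0.851, 1.30 and 0.297 CPM in shNC and 0.762, 0.346 and 0.927 CPM in shMSLN, on 5 to 23 reads a sample. The highest and the lowest sample were both shNC, so the groups overlapped entirely. Its log2 fold change was -0.28 (SE 0.464, adjusted p = 0.675 with edgeR), and the 95% interval of -1.27 to 0.71 includes falls of the size seen in CXCL1 and CXCL3. Without shNC replicate 2 the sign turned (log2 fold change 0.20), as it did without shMSLN replicate 2 (0.030). CXCL5, whose protein is a neutrophil attractant of many epithelia, was listed at 0.111, 0.0565 and 0.0573 CPM in shNC and 0.173, 0.0656 and 0.129 CPM in shMSLN. These values correspond to 1 to 3 reads a sample, and a difference was not detectable at this depth.

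Per length, the 5 ELR chemokines together gave 30.4, 37.4 and 28.7 TPM in the shNC samples and 16.2, 14.4 and 18.0 TPM in the shMSLN samples. The sums did not overlap, with means of 32.1 ± 4.60 and 16.2 ± 1.85 TPM (SD, n = 3 each), and CXCL8 and CXCL1 made up most of them. CXCL6, which also signals through CXCR2 and is expressed at 10.6 to 14.2 TPM in shNC, stood at 8.83 to 12.3 TPM in shMSLN. Its CPM values of 7.44, 9.59 and 7.59 in shNC overlapped the 6.02, 7.63 and 8.25 in shMSLN, and its log2 fold change was -0.17 (SE 0.137, 95% interval -0.46 to 0.12, adjusted p = 0.364 with edgeR).

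Ratios between ligands were also compared within each library. The log2 ratio of CXCL8 to CXCL6 in CPM was 0.73, 0.50 and 0.71 in shNC and -0.22, -0.61 and -0.43 in shMSLN, so CXCL8 was above CXCL6 in every shNC sample and below it in every shMSLN sample. The ratio of CXCL1 to CXCL6 fell from a mean of -0.42 to -1.12, and that of CXCL8 to CXCL1 from 1.07 to 0.70. The ratio of CXCL1 to CXCL3 had means of 2.74 and 2.89. With 3 samples against 3, the smallest two-sided p that an exact permutation test can give is 0.1, which the first 3 ratios and that of CCL20 to CXCL8 reached (adjusted p = 0.125 over 5 pairs, exact permutation test), while CXCL1 to CXCL3 gave p = 0.5 (exact permutation test). The pairs were chosen after the values were seen, and no ratio could pass a threshold of 0.05 in this design.

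CCL20, the ligand of CCR6, had the largest log2 fold change of the 10 genes. It stood at 2.52, 3.10 and 3.88 CPM in shNC and 0.484, 0.841 and 0.904 CPM in shMSLN, or 46 to 70 reads against 9 to 16. Every shNC sample was more than 2-fold above every shMSLN sample. The log2 fold change was -2.09 (SE 0.269, 95% interval -2.66 to -1.52, adjusted p = 3.17e-05 with edgeR), a 4.26-fold fall to 23.5% of the control level. The log2 ratio of CCL20 to CXCL8 fell from a mean of -2.03 to -2.91, so CCL20 mRNA was lower also relative to CXCL8 in the same samples.

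CXCL10, an interferon-induced ligand of CXCR3, did not pass the filter on low counts. It was found at 0.219, 0.984 and 0.612 CPM in shNC and 0.108, 0.280 and 0.226 CPM in shMSLN, that is 4, 18 and 11 reads against 2, 5 and 4. The shNC samples 2 and 3 lay above all shMSLN samples, whereas shNC sample 1 lay below the 2 highest of them. With a filter that kept it, its log2 fold change was -1.55 (adjusted p = 0.0554 with edgeR), and without shNC replicate 1 it passed the filter and the test (-1.95, adjusted p = 0.00549 with edgeR). Without shMSLN replicate 1, 2 or 3 it passed the filter but not the test (-1.24, -1.84 and -1.63, adjusted p = 0.161, 0.077 and 0.104 with edgeR).

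CXCL16, which in its membrane form also takes up oxidized lipoprotein, was the most abundant chemokine of the 10. It stood at 99.2, 104 and 101 CPM in shNC and at 92.8, 92.2 and 90.1 CPM in shMSLN. The groups did not overlap, and the log2 fold change was -0.14 (SE 0.0408, 95% interval -0.23 to -0.06, adjusted p = 0.0138 with edgeR), so the shMSLN level was 90.6% of control. The call was lost when the test was run on log2(TPM + 0.1) or log2(TPM + 1) (adjusted p = 0.0813 and 0.0801 with limma) and without shMSLN replicate 2 (adjusted p = 0.0533) or 3 (adjusted p = 0.0744) in edgeR.

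CCL28, the mucosal chemokine, did not pass the test, at 30.9, 33.2 and 30.9 CPM in shNC and 31.8, 33.7 and 33.9 CPM in shMSLN. The groups overlapped, and the log2 fold change of 0.066 (SE 0.0577, adjusted p = 0.407 with edgeR) had a 95% interval of -0.06 to 0.19. CX3CL1, the membrane-bound fractalkine, was at 0.274, 0.499 and 0.223 CPM in shNC and 0.323, 0.112 and 0 CPM in shMSLN. Its 0 to 9 reads a sample did not pass the filter, and a count of 0 in a library of this size allows up to 0.169 CPM.

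**Figure D2:**
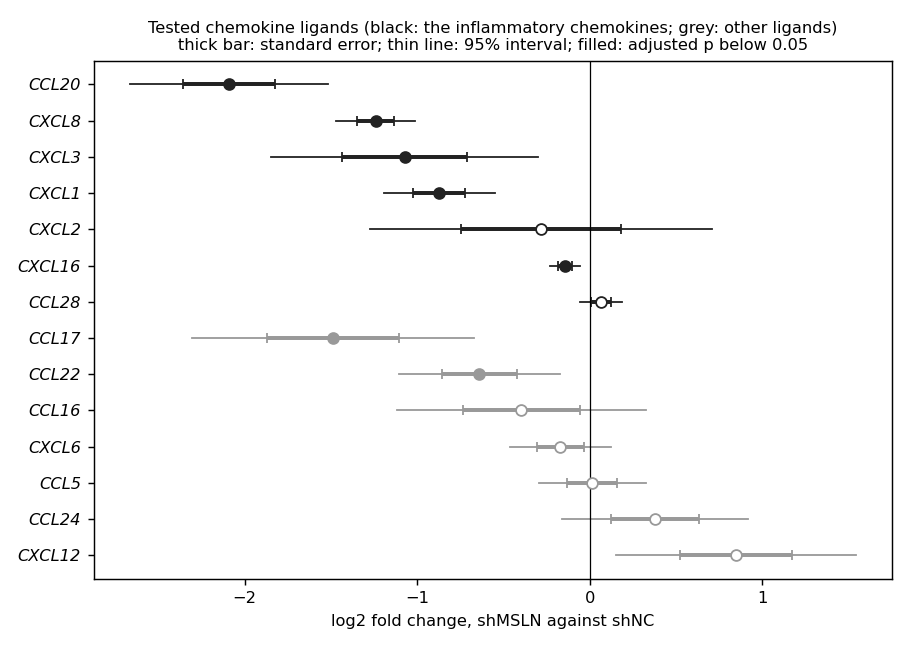
Log2 fold change of shMSLN against shNC for the 7 tested inflammatory chemokines (black) and the 7 other tested chemokine ligands (grey), with the standard error as a thick bar and the 95% interval as a thin line. CCL20, CXCL8, CXCL3, CXCL1 and CXCL16 are filled on the left of 0, as are CCL17 and CCL22.

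The order of the levels, in TPM so that genes of different length can be compared, was CXCL16, CCL28, CXCL8, CXCL1, CCL20, CXCL3, CXCL2, CXCL10, CX3CL1 and CXCL5 in shNC. The means ran from 97.3 TPM for CXCL16 and 26.3 for CCL28 over 16.7 for CXCL8, 11.7 for CXCL1 and 8.70 for CCL20 to 0.0667 for CXCL5. The ranges of the neighbours CXCL1 and CCL20, of CXCL3 and CXCL2 and of CXCL2 and CXCL10 overlapped. In shMSLN the first 5 places held the same genes, but CXCL8 at 7.20 and CXCL1 at 6.52 TPM now overlapped in range and CCL20 at 2.10 overlapped with CXCL2. CXCL16 took 58.7% of the summed TPM of the 10 genes in shNC and 65.4% in shMSLN, and CCL28 took 15.9% and 21.0%. CXCL8 went from 10.1% to 5.21%, CXCL1 from 7.04% to 4.73% and CCL20 from 5.25% to 1.52% of that sum. The sum itself was 157, 179 and 162 TPM in shNC and 136, 138 and 140 TPM in shMSLN. Without CXCL16 and CCL28 the other 8 genes summed to 42.2 ± 5.52 TPM in shNC and 18.8 ± 1.96 TPM in shMSLN (SD, n = 3 each).

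The shNC samples were not equally high. Replicate 2 had the highest level of its group for 8 of the 10 genes, all but CXCL5 and CCL20. Without this sample, CXCL8, CXCL1 and CCL20 still passed edgeR's test. They passed whichever of the 6 samples was left out, with log2 fold changes of -1.33 to -1.18 for CXCL8, -0.94 to -0.75 for CXCL1 and -2.25 to -1.85 for CCL20. Over all alternative scalings, filters, tests and left-out samples that gave a value, CXCL8 and CXCL1 passed in 17 of 17 and CCL20 in 16 of 16, CXCL3 in 12 of 16, CXCL16 in 13 of 17, CXCL2 in 0 of 16 and CCL28 in 0 of 17.

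**Figure D3:**
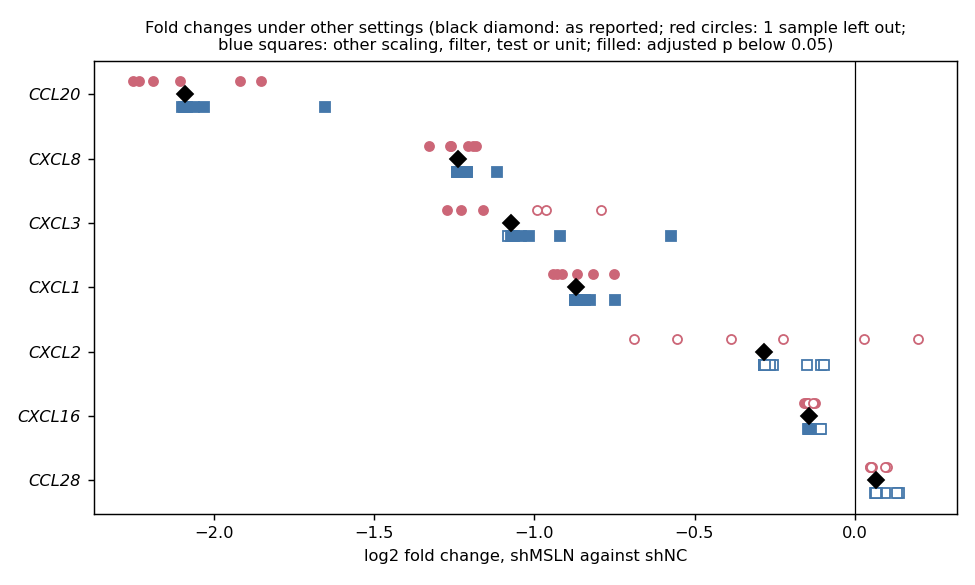
Log2 fold change of the 7 tested chemokines as reported (black diamonds), with 1 sample left out (red circles) and under another scaling, filter, test or unit (blue squares), filled where the adjusted p was below 0.05. CCL20, CXCL8 and CXCL1 are filled under every setting shown, whereas CXCL2 has open symbols on both sides of 0.

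Of the 10 genes, 6 lie in the chemokine cluster of chromosome 4. In GENCODE release 29 on GRCh38 the cluster runs from CXCL8 (chr4:73740506-73743716) over CXCL6, CXCL1 (chr4:73869393-73871242), CXCL5 (chr4:73995642-73998779) and CXCL3 (chr4:74036589-74038807) to CXCL2 (chr4:74097035-74099293), with CXCL10 (chr4:76021117-76023497) farther away. Of the 11 chemokine genes between CXCL8 and CXCL10, 5 were tested and 3 fell, against 18.0% of all genes tested. Among these 3, CXCL3 met the filter on low counts with the help of shNC, where it is higher, and passed in 12 of 16 alternatives. In their order along the chromosome, CXCL8 fell, CXCL6 was not called, CXCL1 and CXCL3 fell and CXCL2 was not called. Of the 15 other genes tested in the stretch, 2 fell and 3 rose, beside 18.0% and 16.6% of all genes. CX3CL1 lies on chromosome 16 (chr16:57372458-57385048) between CCL22 (chr16:57358772-57366190) and CCL17 (chr16:57404767-57416062). Both of these neighbours fell in edgeR, beside 18.0% of all genes tested, and neither passed with DESeq2. CCL17 met the filter on low counts through shNC only, and CCL22 passed in 11 of 17 alternatives. CXCL16 is on chromosome 17 (chr17:4733526-4739922), CCL20 on chromosome 2 (chr2:227805739-227817564) and CCL28 on chromosome 5 (chr5:43376645-43412391).

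**Figure D4:**
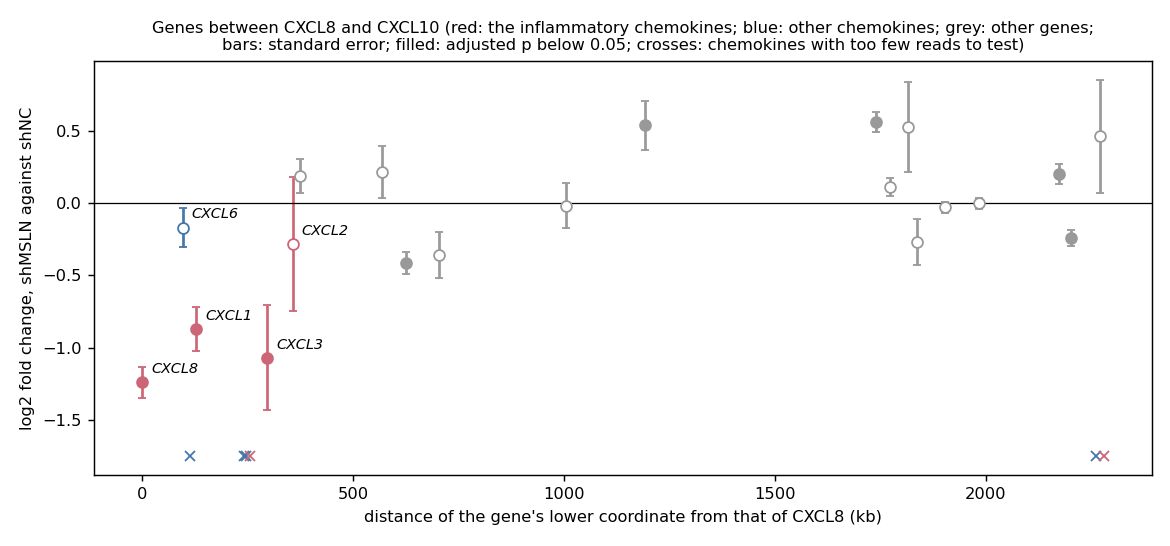
Log2 fold change (bars, standard error) of the tested genes from CXCL8 to CXCL10 against the distance of each gene's lower coordinate from that of CXCL8, in kb, with untested chemokines as crosses at the bottom. CXCL8, CXCL1 and CXCL3 are filled and low, while CXCL6 and CXCL2, in the same cluster, are open and nearer to 0.

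Of 36 other chemokine ligands, 20 were listed and 7 tested, 2 of which fell and 0 rose, beside 18.0% and 16.6% of all genes. The median log2 fold change was -0.17. At an unadjusted p below 0.05, 1 rose, as 1 did with limma-voom and 0 with DESeq2, and with DESeq2 0 fell. CCL17, a ligand of CCR4 on T cells, was at 0.770, 0.717 and 0.723 CPM in shNC and 0.246, 0.224 and 0.282 CPM in shMSLN. Its groups did not overlap, and its log2 fold change was -1.49 (SE 0.383, adjusted p = 0.00756 with edgeR, 0.0618 with DESeq2). With 13 to 14 reads in shNC and 4 to 5 in shMSLN, CCL17 passed the filter on low counts through shNC only. It was not tested with a filter of at least 10 counts in every sample, under which 1 of 5 tested ligands of this list fell. CCL22, the other CCR4 ligand, was at 2.29, 3.21 and 2.94 CPM in shNC and 2.26, 1.48 and 1.71 CPM in shMSLN, with a log2 fold change of -0.64 (SE 0.218, adjusted p = 0.0344 with edgeR). This call was lost with DESeq2, with limma on log2(TPM + 0.1) and without shNC replicate 2 (-0.53), shNC replicate 3 (-0.61), shMSLN replicate 2 (-0.51) or shMSLN replicate 3 (-0.59). CXCL12, the homeostatic CXCR4 ligand, was at 0.383 to 0.776 CPM in shNC and 0.914 to 1.13 CPM in shMSLN, and its log2 fold change of 0.85, with an adjusted p of 0.0559 in edgeR, passed in 5 of its 16 alternatives, 1 of them without shNC replicate 2 (1.13, adjusted p = 0.034).

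Among the chemokine receptors, 8 of 19 listed were tested, 1 rose and 1 fell, beside 16.6% and 18.0% of all genes. The rises numbered 2 with the looser filter (15 tested), with the stricter filter (7 tested), with limma on log2(TPM + 1) and without shNC replicate 3 or shMSLN replicate 1. CXCR2, the receptor of the ELR ligands, also fell, from 10.7, 13.5 and 13.4 CPM in shNC to 9.14, 8.48 and 8.22 CPM in shMSLN (log2 fold change -0.54, SE 0.107, adjusted p = 0.00126 with edgeR). Its groups did not overlap. The most abundant receptor was ACKR3, a scavenger of CXCL12, which rose from 136 ± 5.57 to 164 ± 1.88 CPM (SD, n = 3 each, log2 fold change 0.27, adjusted p = 0.00012 with edgeR). CCR6, the receptor of CCL20, was at 0.68 to 0.77 TPM in shNC and 0.73 to 1.30 TPM in shMSLN and did not pass the test (adjusted p = 0.277 with edgeR).

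Of 23 tested inducers of these chemokines and inducer receptors, 8 fell and 4 rose, with a median log2 fold change of -0.10, where 18.0% of all genes fell and 16.6% rose. IL1B, which encodes the cytokine IL-1beta, fell from 6.29, 5.49 and 8.40 CPM to 4.62, 4.43 and 4.69 CPM (log2 fold change -0.55, SE 0.158, adjusted p = 0.0138 with edgeR), a call that was lost without shNC replicate 3 (-0.36, adjusted p = 0.0885) or shMSLN replicate 2 (-0.53, adjusted p = 0.0507). Its receptor IL1R1 fell by 0.67 on the log2 scale (SE 0.138) and the receptor antagonist IL1RN by 0.71 (SE 0.0769), while the kinase IRAK1 rose by 0.61 (SE 0.0601). The most abundant gene of the list, the TNF receptor TNFRSF1A, did not pass (log2 fold change 0.063, adjusted p = 0.221 with edgeR).

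Of the 17 NF-kB subunits and regulators, all tested, 10 fell and 0 rose, beside 18.0% and 16.6% of all genes. Their median log2 fold change was -0.21. The count of rises was also 0 at an unadjusted p below 0.05, with DESeq2 and with limma-voom, and 1 without shNC replicate 2. The subunits RELB (log2 fold change -1.04, SE 0.107) and NFKB2 (-0.52, SE 0.0487) fell, and so did the kinase CHUK, from 26.9 ± 0.866 to 13.5 ± 1.39 CPM (SD, n = 3 each). The subunit NFKB1 fell less (-0.19, SE 0.0449). The subunits RELA (-0.095, SE 0.0388, adjusted p = 0.0705 with edgeR) and REL (0.12, SE 0.0821, adjusted p = 0.279 with edgeR) did not pass the test. The regulators that fell included inhibitors, namely NFKBIA (-0.56, SE 0.0428), NFKBIE (-0.54, SE 0.102) and the deubiquitinating TNFAIP3 (-0.94, SE 0.0669), as well as the cofactor BCL3 (-1.03, SE 0.0615). NFKBIA, the most abundant of the list, went from 134, 132 and 132 CPM to 94.6, 87.4 and 87.6 CPM. Several of these genes, NFKBIA and TNFAIP3 among them, are themselves known NF-kB targets.

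Of 12 tested factors that act on chemokine mRNA stability, 3 fell and 0 rose, beside 18.0% and 16.6% of all genes. Their median log2 fold change was -0.08. The count of rises was also 0 at an unadjusted p below 0.05, with DESeq2 and with limma-voom, but 1 with upper-quartile scaling and 1 without shNC replicate 1 or 2, and 5 fell without shNC replicate 1. ZC3H12A, a ribonuclease that degrades inflammatory mRNAs, fell from 30.0 ± 1.24 to 19.8 ± 0.598 CPM (SD, n = 3 each, log2 fold change -0.60, SE 0.0628, adjusted p = 4.17e-06 with edgeR). ZFP36L2, the most abundant of the list and a binder of AU-rich elements, missed the threshold in edgeR (log2 fold change 0.079, adjusted p = 0.137) and passed with upper-quartile scaling and without shNC replicate 2 (0.12, adjusted p = 0.0175).

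Of 11 tested genes for chemokine shedding and degradation, 4 fell and 2 rose, beside 18.0% and 16.6% of all genes. Over the alternatives the falls numbered 2 to 4, and were 2 without shNC replicate 2 or 3 or shMSLN replicate 2 or 3. The rises numbered 1 with DESeq2, with limma on log2(TPM + 0.1) or log2(TPM + 1), and without shNC replicate 1 or 3 or any one of the shMSLN samples. The sheddases of CXCL16 and CX3CL1 did not pass the test, with log2 fold changes of 0.0084 for ADAM10 and -0.07 for ADAM17. MMP12, an elastase that trims ELR chemokines, was at 1.15, 1.72 and 1.56 CPM in shNC and 1.13, 0.673 and 0.678 CPM in shMSLN (log2 fold change -0.82, SE 0.293, adjusted p = 0.0413 with edgeR). This call was lost with DESeq2 (adjusted p = 0.13) and without shNC replicate 2 or 3 or shMSLN replicate 2 or 3, with adjusted p between 0.114 and 0.149. TIMP3, a metalloproteinase inhibitor and the most abundant gene of its list, fell, with a log2 fold change of -0.26 (SE 0.0334, adjusted p = 3.09e-05 with edgeR). TIMP1, the other such inhibitor of the list, rose (log2 fold change 0.41, SE 0.0472, adjusted p = 1.1e-05 with edgeR). The other rise was that of DPP4 (0.34, SE 0.121, adjusted p = 0.0413 with edgeR).

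Over the 6 samples and 13757 candidate genes, the genes whose log2 CPM followed that of CXCL8 most closely were NCOR1 and PXYLP1 (Pearson's r of 0.999 each) and CNOT1 (0.998). Those nearest to CXCL16 were ICE1 and TEP1 (0.997 each) and OSMR (0.996), and those nearest to CCL28 were ZNF782 (0.989), CCBE1 (0.987) and LRRC37A3 (0.987). These values describe 6 libraries that fall into 2 groups, and any gene that differs between the groups with little spread scores high.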

How the data were processed

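BGI sequenced oligo(dT)-enriched mRNA from both groups (3 samples each). The authors deposited estimated counts, TPM and FPKM per gene and sample. The FPKM values were not used. The genome build was GRCh38.p13 per the submitters' processing notes, and the aligner, quantifier and read length are not given in the sources used here. In shMSLN, 1103, 695 and 695 genes had missing marks, and the 16573 complete genes were kept, all 10 chemokines among them. Above 100 reads, 47.7% of the deposited estimated counts were whole numbers in shMSLN replicates 2 and 3, against 3.36% to 7.02% in the other samples. Columns may thus have been made differently. Each shNC sample had 0 missing marks, so such a difference partly follows the groups. Its part in the values cannot be told apart from that of the knockdown.

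Groups and replicate numbers came from the sample titles. Rounded estimated counts entered the quasi-likelihood test of edgeR 4.0.16 (R 4.3.3) without covariates, after TMM scaling and filterByExpr. The fit covered all genes, with Benjamini-Hochberg adjustment. Standard errors were the log2 fold change divided by the square root of F, with 95% intervals. CPM uses TMM-scaled totals, and deposited TPM served for comparing levels between genes. On simulated counts for this comparison (14544 genes, 200 changed by 2-fold), edgeR recovered 92.5% and called 14 unchanged genes. In the real data 34.6% of the genes tested were called, a far larger share, so these rates may not carry over. The 95% intervals come from the edgeR fit and rest on the spread between the samples of each group. The limit of 3 counts for a count of 0 covers counting error of a single library only. DESeq2 1.42.0 and limma 3.58.1 were alternatives, among 17. The members, lists and tests were chosen with earlier results of these data known.

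Named genes were the 10 chemokines, MSLN, in each other list the most abundant gene and those called with an absolute log2 fold change of at least 0.5, and for the 3 most abundant chemokines the 3 genes most correlated with each (mean of at least 1 CPM). CXCL12, CCR6, ADAM10, ADAM17, TIMP1, DPP4, RELA, REL, NFKB1, and the marker and chromosome 4 genes were named after their values were seen. Promoter sequences came from RefSeq and gene positions from GENCODE release 29.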

Additional observations from a re-analysis of the deposited data

How the results depend on the processing

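The number of the 10 chemokines that fell was 5, and 3 with a filter of at least 10 counts in every sample, under which 4 of them were tested. It was 3 to 6 when 1 sample was left out, with 3 without shMSLN replicate 2 and 6 without shNC replicate 1, and 0 rose under any alternative. Over all genes, 2621 fell and 2411 rose. With limma on log2(TPM + 0.1) and log2(TPM + 1), 1683 and 1690 fell while 2614 and 2648 rose, and with upper-quartile scaling 2149 fell and 2911 rose, where the median log2 fold change of all genes was 0.031. The cause was not tested. With 1 sample left out, 1920 to 2829 fell and 1775 to 2570 rose. With 1 sample left out, CXCL2 ranged from -0.69 to 0.20 on the log2 scale and changed sign without shNC replicate 2 and without shMSLN replicate 2 (0.030), and CCL5, at 0.015 in the reported fit, ranged from -0.063 to 0.073 and changed sign without shNC replicate 1 and without shMSLN replicate 2. With the replicate number as a block, 3004 genes fell and 2785 rose, and 5 of the chemokines fell. Same-numbered samples had correlations of deviations of 0.218, 0.0847 and 0.0954, and each sample correlated best with its own number. Whether same-numbered samples were handled together is not given, and the reported fit took no account of the number. At this depth, genes of a few reads, namely CXCL2, CXCL3, CXCL5, CXCL10 and CX3CL1, are limited by counting error.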
